A study of Mus musculus with 3 samples.

Results

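Carrier genes for amino acids, sugars and related nutrients were examined in mouse CD8 T cells given cholesterol. They comprised every gene whose symbol starts with Slc1a, Slc2a, Slc3a, Slc6a, Slc7a, Slc16a, Slc38a or Slc43a. The glucose, lactate and cystine carrier genes Slc2a1, Slc2a3, Slc16a1, Slc16a3 and Slc7a11 were left out. The rule found 78 genes of 19505 with a named probe set, and each had 1 probe set. One of them, Slc7a6os, carries the family prefix because it is named after its neighbour Slc7a6 and is not itself known as a carrier. The CD8 T cells had been stimulated through CD3 and CD28 in Tc1 cytokines, a mixture that steers them toward cytotoxic effectors. Without added cholesterol they were the control, and the other cultures received 0.5 or 0.75 µg/ml cholesterol, all in the same Tc1 condition. Total RNA was hybridised to a whole-transcript array, with 1 array per group. No difference below therefore has a replicate check or a p-value, and precision is limited by the number of arrays. The labels give neither the mouse strain and age, nor the number of animals or cultures, the length of exposure or the vehicle of the cholesterol. An effect of that vehicle and one of cholesterol cannot be told apart.

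Solute carriers move nutrients across the plasma membrane and the membranes of organelles. An activated T cell raises its uptake of glutamine, leucine and other amino acids as it grows and divides. Leucine and other large neutral amino acids enter through a heteromer of a light chain, encoded by Slc7a5, and the heavy chain encoded by Slc3a2, known as CD98. Glutamine enters through sodium-coupled carriers, including those encoded by Slc1a5, Slc38a1 and Slc38a2. The amino acids feed protein synthesis and the kinase complex mTORC1, which senses them at the lysosome.

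The arrays had median intensities of 32.4 to 33.0 on the deposited linear scale. A probe set was called above background where its intensity exceeded 102, the highest of the 3 arrays' 95th percentiles of the negative-control probe sets. All 8 T cell genes checked, such as Cd3e, Cd8b1 and Gzmb, were above that level on every array. They were not all level. At 0.75 µg/ml against the control Cd8a was at 3313 against 4225, Cd8b1 at 2030 against 2574 and Cd3d at 1269 against 1603. Thy1 was higher, at 2552 against 1979. Of the 8, 5 were lower and 3 higher at that dose, beside 50.8% higher of all genes. Markers of other cells were at or near background. The summed intensity of 5 measured B cell markers was 189 in the control, 171 at 0.5 and 180.1 at 0.75 µg/ml, with Cd79b the only member above background, on the control array at 111 and at 0.75 µg/ml at 105. That of 7 macrophage and dendritic cell markers was 136, 161 and 146, and none was above background. The same held for 5 fibroblast and epithelial markers, which summed to 188, 189 and 201. Of 3 erythroid and platelet markers, which summed to 292, 288 and 262, Slc4a1 alone was above background, at 132, 130.4 and 127.

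Of the 78 carrier genes, 24 were above background on at least 1 array and 22 on all 3. The other 54 were under it on every array. The share above background on at least 1 array was 30.8% of the carrier genes and 41.1% of all genes. By array, 23 carrier genes were above background in the control, 23 at 0.5 and 22 at 0.75 µg/ml. All 3 genes of the Slc43a family were above background on every array, as were 5 of 11 in the Slc38a family. In the Slc7a family the count was 4 of 15, which includes Slc7a6os, and it was 3 of 11 in Slc16a, 1 of 7 in Slc1a and 1 of 2 in Slc3a. In the Slc2a family 3 of 10 were above background on every array and 1 more on 1 array. In the Slc6a family, which holds many carriers of neurotransmitters, 2 of 19 were above background on every array, 1 more on 1 array, and 16 on none.

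**Figure D1:**
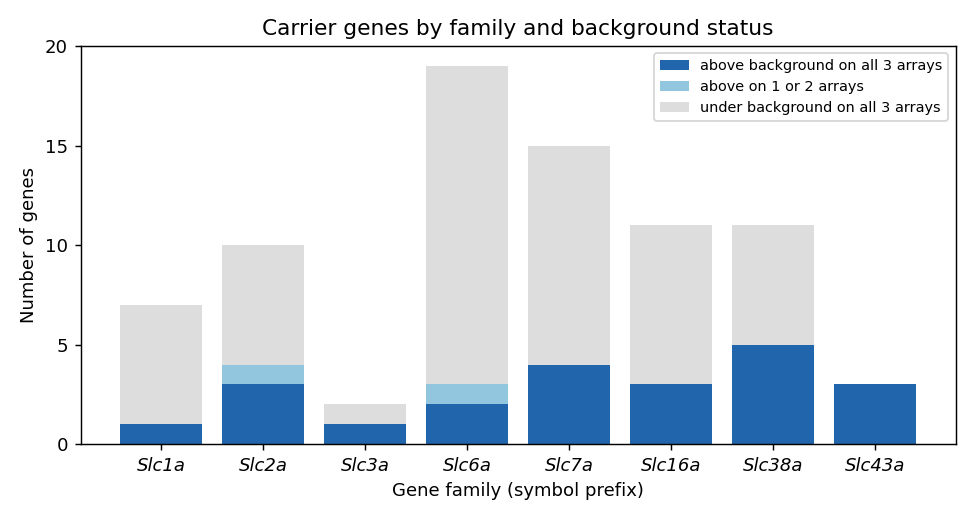
Number of carrier genes (vertical axis) in each gene family, named by symbol prefix (horizontal axis), split by whether the probe set was above the negative-control level of 102 on all 3 arrays, on 1 or 2, or on none. The Slc43a genes were all above it, and 54 of the 78 genes were under it on every array.

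No carrier gene differed 2-fold between any 2 arrays. A level filter, a mean log2 intensity of at least 5.02, was passed by 39 of the 78 carrier genes and by 10940 genes in all. Of these 39, 0 were higher and 0 lower by 2-fold or more at 0.5 µg/ml than in the control, against 0.0914% higher and 0.0548% lower of all genes past the filter. At 0.75 µg/ml against the control the counts were again 0 and 0, against 0.356% higher and 1.57% lower of all genes. Between the doses they were also 0 and 0, against 0.402% higher and 1.19% lower. With background shares this low, a count of 0 among 39 genes lies near the background and does not set the carriers apart. In bulk RNA, fewer cells of a type and less RNA per cell cannot be told apart.

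A difference of 1.5-fold was reached by few carrier genes, and most of those were dim. At 0.5 µg/ml against the control, 0 of 39 were at least 1.5-fold higher and 1 was lower, beside 0.941% and 0.996% of all genes past the filter. At 0.75 µg/ml against the control 1 was higher and 1 lower, beside 2.53% and 4.55%. At 0.75 against 0.5 µg/ml 0 were higher and 1 lower, beside 1.8% and 3.72%. The lower gene at 0.75 µg/ml was Slc6a19, which encodes a carrier of neutral amino acids in gut and kidney. It had intensities of 115, 99.6 and 67.4 in the control, at 0.5 and at 0.75 µg/ml, so only the control array was above background. Against that level it was at least 1.13-fold lower at 0.75 µg/ml. The others were under background on every array and were chosen here after their values were seen. Slc6a20a, a gene for a proline carrier with a similar copy in Slc6a20b, was at 29.5 at 0.5 µg/ml against 44.7 in the control. The GABA carrier gene Slc6a11 was at 44.4 at 0.75 µg/ml against 26.4 in the control. Slc7a3, a gene for a cationic amino acid carrier, was at 57.8 at 0.75 µg/ml against 92.1 at 0.5 µg/ml.

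The median log2 difference of the 39 carrier genes past the filter was 0.00 at 0.5 µg/ml against the control and -0.04 at 0.75 µg/ml. Over all genes past the filter it was 0.01 and 0.00 in that order. At 0.75 against 0.5 µg/ml it was -0.04 for the carrier genes and -0.01 for all genes. For the 22 carrier genes above background on every array, the median size of the difference regardless of direction was 0.08 at 0.5 and 0.17 at 0.75 µg/ml. For all 7309 genes above background on every array it was 0.09 and 0.15. The positive-control probe sets past the filter differed from the control array with an SD of 0.30 at 0.5 and 0.31 at 0.75 µg/ml, a spread between these arrays that is no replicate error. Past that SD lay 1 of the 22 carrier genes at 0.5 µg/ml (4.55%) and 4 at 0.75 µg/ml (18.2%), beside 6.91% and 20.5% of all genes. The 1 gene at 0.5 µg/ml was Slc7a5, and the 4 at 0.75 µg/ml were Slc16a5, Slc16a6, Slc38a9 and Slc43a1.

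**Figure D2:**
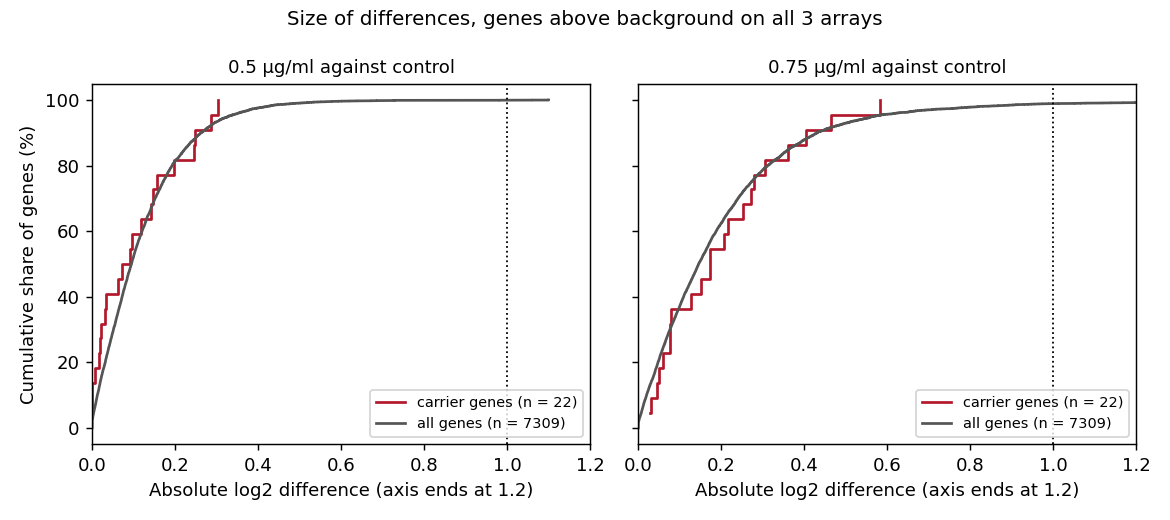
Cumulative share of genes (vertical axis, percent) by absolute log2 difference (horizontal axis, ending at 1.2) for the 22 carrier genes and the 7309 genes that were above background on all 3 arrays, at 0.5 µg/ml (left) and 0.75 µg/ml (right) against the control; the dotted line is 2-fold. The carrier curve runs close to that of all genes and ends at 0.30 on the left and 0.58 on the right, short of 2-fold.

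The RNA of both chain genes of the large neutral amino acid heteromer was slightly higher at both doses, and protein was not measured. The light chain gene Slc7a5 had intensities of 2273 in the control, 2806 at 0.5 and 2708 at 0.75 µg/ml. The heavy chain gene Slc3a2 had 2492, 2961 and 2811 in the same order. The control array was the low one for both genes, and Slc7a5 was 1.23-fold and Slc3a2 1.19-fold higher at 0.5 µg/ml, with log2 differences of 0.30 and 0.25. At 0.75 µg/ml the log2 differences were 0.25 and 0.17. Of these differences only that of Slc7a5 at 0.5 µg/ml lay past the positive-control SD, at 0.304 against 0.296. The heavy chain also pairs with the product of Slc7a6, which exchanges cationic for neutral amino acids. Slc7a6 was nearly level, at 377, 377 and 390.4. Genes for its other light chains among the carriers, Slc7a7, Slc7a8 and Slc7a10, were under background on every array, as was the other heavy chain gene, Slc3a1, with its kidney partners Slc7a9 and Slc7a13. Slc7a6os, the neighbour of Slc7a6, was at 205, 219 and 253.

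The glutamine carrier genes differed little from the control. Slc1a5, which encodes an exchanger of small neutral amino acids, had 1499, 1532 and 1689.8 across the control, 0.5 and 0.75 µg/ml. Slc38a1 had 1917, 2121 and 2325, and at 0.75 µg/ml it was 1.21-fold higher than in the control, a log2 difference of 0.28. Both genes were in the order of the doses. Slc38a2, whose product carries glutamine and alanine and which lies next to Slc38a1 on chromosome 15, had 2372, 2359.5 and 2277, a span of 1.04-fold. Slc1a4, a relative of Slc1a5 that carries alanine and serine, was under background on every array, at 42.1, 47.6 and 43.5.

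Among the other genes of the Slc38a family, Slc38a9 was the one with a lower level at 0.75 µg/ml beyond the positive-control SD. Its product sits on the lysosome and reports arginine to mTORC1. Slc38a9 had 439 in the control, 444 at 0.5 and 342 at 0.75 µg/ml, so the array at 0.75 µg/ml stood below the other 2. The log2 difference from the control was 0.02 at 0.5 and -0.36 at 0.75 µg/ml. Slc38a6 was at 309, 285 and 293 and Slc38a10 at 1536, 1443 and 1455, both less characterised carriers. Slc38a7, a gene for a lysosomal carrier of glutamine, was at 89.6, 93.0 and 101. It was just under the background level of 102 on every array, although 101 exceeds the 95th percentile of the array at 0.75 µg/ml itself.

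The 3 genes of the Slc43a family were in descending order with dose. Slc43a1 and Slc43a2 encode facilitative carriers of leucine and other large neutral amino acids, and Slc43a3 encodes a carrier of purine nucleobases. Slc43a1 had 200.5 in the control, 182 at 0.5 and 145 at 0.75 µg/ml, which is 1.38-fold lower at 0.75 µg/ml than in the control, a log2 difference of -0.46. Slc43a2 had 382, 366 and 331, and Slc43a3 had 1423, 1401 and 1302, with log2 differences at 0.75 µg/ml of -0.21 and -0.13. Of the 22 carrier genes above background throughout, 6 (27.3%) were in descending and 4 (18.2%) in ascending order with dose, beside 20.4% and 22.9% of all genes above background throughout.

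The cationic amino acid carrier gene Slc7a1, the taurine carrier gene Slc6a6 and the glycine carrier gene Slc6a9 were nearly level. Slc7a1, whose product brings arginine and lysine into cells, had 605, 605 and 617. Slc6a6 had 639, 625 and 607. Slc6a9 had 201, 203 and 194. The widest span of these 3 genes over the 3 arrays was 1.05-fold. The creatine carrier gene Slc6a8 was under background on every array, at 49.6, 61.9 and 66.1.

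**Figure D3:**
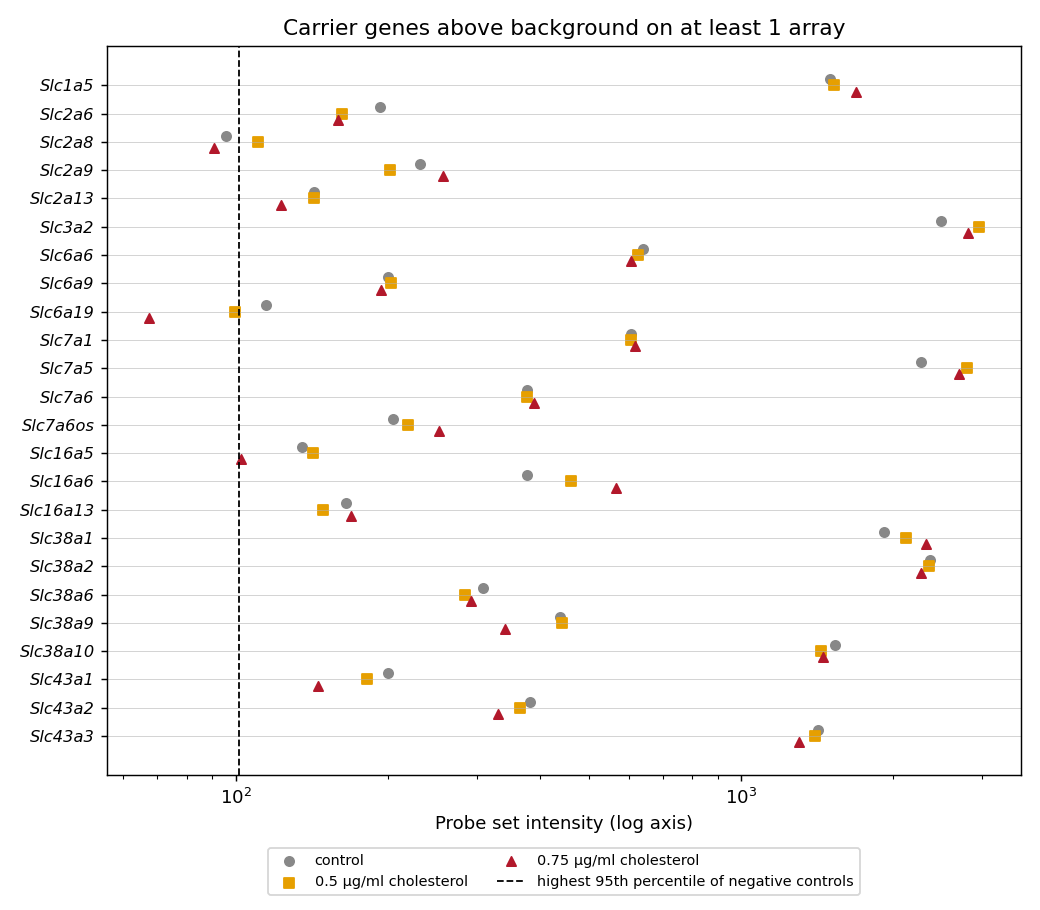
Probe set intensity (horizontal log axis) of the 24 carrier genes above background on at least 1 array, with 1 point per array for the control (grey circle), 0.5 µg/ml (orange square) and 0.75 µg/ml cholesterol (red triangle); the dashed line is the background level of 102. For most genes the points lie close together, while Slc16a6 lies further right with dose and Slc6a19 and Slc43a1 further left.

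The monocarboxylate carrier family held the widest difference among the carrier genes above background on every array. Slc16a6 encodes a carrier whose zebrafish counterpart exports the ketone body beta-hydroxybutyrate from the liver. It had 377 in the control, 460.4 at 0.5 and 565 at 0.75 µg/ml. The arrays were thus in the order of dose, with log2 differences from the control of 0.29 and 0.58, the larger just under the 1.5-fold threshold. Slc16a5 ran the other way at 0.75 µg/ml, with 135, 142 and 102, the last just above background, and a log2 difference from the control of -0.40. Slc16a13 was at 166, 149 and 169. Slc16a10, which encodes a carrier of aromatic amino acids, was under background on every array, at 78.9, 78.8 and 75.4. Of 7308 other genes above background on every array, those with the nearest pair of log2 differences from the control to that of Slc16a6 were Ptpn9 (0.29 and 0.59), Rrp15, Ifitm2, Tnfsf10 and Ahctf1. Their distances ranged from 0.01 to 0.03 on the log2 scale, over 2 differences that share the control array.

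Among the sugar carrier genes, Slc2a6 was lower at both doses, at 193 in the control, 163 at 0.5 and 159.7 at 0.75 µg/ml. Its product is a glucose carrier of lysosomal membranes. Slc2a9, a urate carrier gene, was at 231, 202 and 257, and the arrays did not follow the dose. Slc2a13, which encodes a proton-coupled myo-inositol carrier, was at 143, 143 and 123. Slc2a8, which encodes an intracellular sugar carrier, was at 96.0, 111 and 90.6, above background only at 0.5 µg/ml. The insulin-responsive glucose carrier gene Slc2a4 and the liver and intestinal genes Slc2a2 and Slc2a5 were under background on every array. Of the 5 carrier genes left out by the rule, all were lower at 0.75 µg/ml than in the control, Slc16a1 by only -0.03 on the log2 scale. Of all 10940 genes past the filter, 5218 were lower. The median log2 difference of the 5 was -0.47, and 2 of them were at least 2-fold lower, beside 1.57% of all genes past the filter. These 2 were Slc2a3, at 308 against 995 in the control, and Slc16a3, at 554 against 1261. Slc2a1 was at 1585.5 against 2200.1 in the control and Slc16a1 at 688 against 702, while Slc7a11 was under background on every array. Whether these genes differ from the other carriers was not tested.

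**Figure D4:**
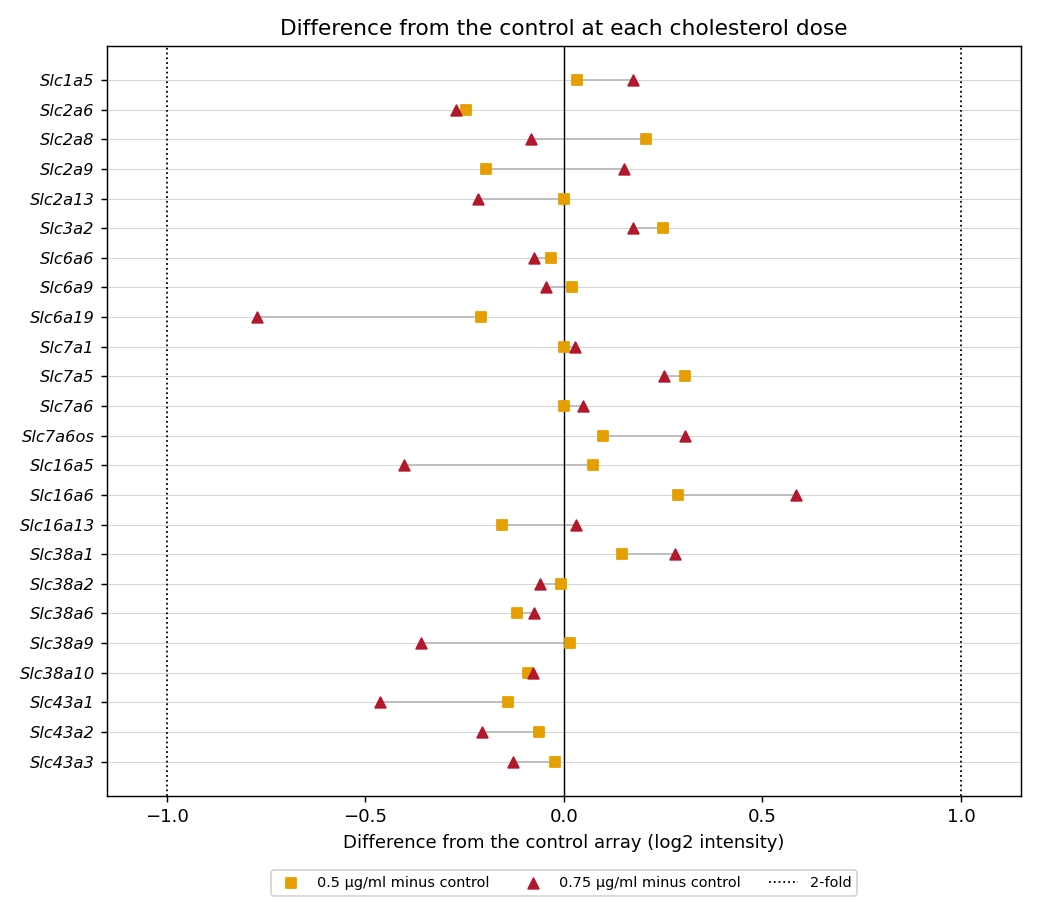
Difference from the control array in log2 intensity (horizontal axis) of the 24 carrier genes above background on at least 1 array, at 0.5 µg/ml (orange square) and 0.75 µg/ml (red triangle), joined by a line; dotted lines mark 2-fold. All points lie inside 2-fold. Slc16a6 reaches 0.58 at 0.75 µg/ml, and the point of Slc6a19 at -0.77 rests on an array under background, where the difference is -0.18 with dim values raised to the background level.

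The 54 carrier genes under background on every array had intensities from 5.55 to 101. Of these, 8 (14.8%) differed at least 1.5-fold and 0 at least 2-fold between their highest and lowest array, beside 14.4% and 1.74% of the 11493 genes under background on every array. No fold is given for them singly, since both values lie in the range of the negative controls. The group holds neuronal and epithelial carriers such as the glutamate carrier genes Slc1a1, Slc1a2 and Slc1a3, the dopamine, noradrenaline and serotonin carrier genes Slc6a3, Slc6a2 and Slc6a4, and the cationic carrier gene Slc7a2.

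The sequence before the annotated start is shown for 3 carrier genes, the heavy chain gene Slc3a2 and the leucine and arginine-linked genes Slc43a1 and Slc38a9 that were lower at 0.75 µg/ml. The sequences are those of RefSeq for build GRCm38.p6, the 250 bases upstream of a listed start, 5′ to 3′ on the gene's strand. Capitals mark matches to the motifs described next.
Slc3a2 (GRCm38.p6, chr19:8713898-8714147, minus strand): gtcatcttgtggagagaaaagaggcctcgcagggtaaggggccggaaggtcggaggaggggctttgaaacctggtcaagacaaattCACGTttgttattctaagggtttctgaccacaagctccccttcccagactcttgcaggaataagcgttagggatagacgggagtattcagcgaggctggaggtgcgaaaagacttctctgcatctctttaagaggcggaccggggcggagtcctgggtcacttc
Slc43a1 (GRCm38.p6, chr2:84840073-84840322, plus strand): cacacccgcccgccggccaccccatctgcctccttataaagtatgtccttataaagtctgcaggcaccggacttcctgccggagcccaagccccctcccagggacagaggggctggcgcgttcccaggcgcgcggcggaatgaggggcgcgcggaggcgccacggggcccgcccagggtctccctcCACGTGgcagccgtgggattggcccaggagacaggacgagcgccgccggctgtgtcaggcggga
Slc38a9 (GRCm38.p6, chr13:112660516-112660765, plus strand): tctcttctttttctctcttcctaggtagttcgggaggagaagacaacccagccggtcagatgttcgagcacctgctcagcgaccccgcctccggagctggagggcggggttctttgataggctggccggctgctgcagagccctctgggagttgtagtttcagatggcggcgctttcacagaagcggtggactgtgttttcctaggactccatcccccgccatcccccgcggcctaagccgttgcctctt
The motifs, searched on both strands, were ACGTG and GCGTG, cores of hypoxia response elements, the E-box CACGTG, which contains ACGTG, the amino acid response element TGATGNAA, in which N is any base, and a consensus of the sterol response element. The E-box was present in Slc43a1, ACGTG alone in Slc3a2, and none of the 5 in the window of Slc38a9. RefSeq windows matched 57 of the 78 carrier genes, and 16 of the 24 above background had 21 windows. No window was matched for Slc7a5, Slc1a5, Slc38a1, Slc43a3, Slc6a6, Slc16a5, Slc16a6 and Slc16a13, so the shares do not cover them. Of those 21 windows, 5 held ACGTG (23.8%), 10 held GCGTG (47.6%) and 1 held CACGTG (4.76%), beside 16.6%, 28.2% and 6.02% of 32851 windows of all genes. Of the 10 with GCGTG, 3 belong to Slc6a9. Both windows of Slc7a6 are among the 10 and also among the 5 with ACGTG. These windows overlap and share a GCGTG match, so the shares by window count some genes and letters more than once. Over the 78 windows of the 57 matched carrier genes the shares were 20.5% for ACGTG, 32.1% for GCGTG and 10.3% for CACGTG. TGATGNAA was in 0 of the 21 and 3 of the 78 windows (3.85%), beside 3.45% of all. The sterol response element was in 0 of the 21 and 0 of the 78, beside 0.192% of all. These matches describe letters in the windows, and binding was not measured.

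Genes of mTORC1 and of amino acid sensing were set beside the same shares of all genes past the filter. The 33 measured genes cover mTORC1, its amino acid inputs, its regulators Rheb, Tsc1 and Tsc2, and its targets Eif4ebp1 and Eif4ebp2. All 33 passed the level filter. At either dose 0 differed 2-fold, a count near the shares of all genes given above (0.356% higher and 1.57% lower at 0.75 µg/ml). Past the positive-control SD at 0.75 µg/ml lay 4 higher and 6 lower genes, 30.3% of the list beside 25.3% of all genes past the filter. Their median log2 difference was 0.02 at 0.5 and 0.00 at 0.75 µg/ml. Sesn2, which encodes a leucine sensor, was at 148 in the control, 161 at 0.5 and 235 at 0.75 µg/ml, with a log2 difference of 0.67 at 0.75 µg/ml. Mlst8, a subunit of mTORC1, was at 221, 215 and 319.6. Sesn3 and Sesn1, related to Sesn2, were lower at both doses, at 769, 702 and 539 and at 248, 189 and 178. Rheb, also on the list, was higher at both doses, at 452, 566 and 557.

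Of 14 measured genes of the amino acid starvation response, 13 passed the filter, with a median log2 difference of 0.11 at 0.5 and -0.05 at 0.75 µg/ml. None was 2-fold different at 0.5 µg/ml against the control. At 0.75 µg/ml 1 of 13 was lower, beside 1.57% of all genes past the filter. It was Vldlr, at 28.9 against 59.8 in the control, under background on both arrays. Between the doses 1 of 13 was at least 2-fold lower at 0.75 µg/ml, beside 1.19% of all genes, and it was Stc2. The median log2 difference between the doses was -0.32, with 12 of 13 genes lower and 1 higher at 0.75 µg/ml. Of all 10940 genes past the filter, 5594 were lower and 5057 higher. The 13 include Atf5, Chac1, Nupr1 and Vldlr, which were under background on every array. Some of the 12 were barely lower, such as Atf4 at -0.05 and Trib3 at -0.07. Past the positive-control SD of that comparison lay 7 lower and 0 higher genes, 53.8% of the 13 beside 21.5% of all genes. Of these 7, Chac1, Nupr1 and Vldlr were under background on every array, and Stc2 was above it only at 0.5 µg/ml. Only Eif2ak4, Asns and Ddit4 were above background on all arrays, so much of that share rests on dim values. Against the control 30.8% lay past the SD at each dose, beside 13.2% at 0.5 and 25.3% at 0.75 µg/ml. Of the 14 genes, 9 were above background on at least 1 array.

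Among its members above background, Asns, the asparagine synthetase gene, was at 1106, 1585 and 1195, highest at 0.5 µg/ml. Ddit4, which encodes a stress-induced inhibitor of mTORC1, was at 1376, 1489 and 877, and Eif2ak4, the gene of the kinase that senses uncharged transfer RNA, at 351, 319 and 229. Stc2, a secreted glycoprotein gene, was at 72.5, 109.6 and 48.3, above background only at 0.5 µg/ml, and at least 1.08-fold lower at 0.75 than at 0.5 µg/ml against that level.

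Of 24 genes of amino acid use, 16 were measured and 11 passed the filter, and 0 differed 2-fold, a count near the shares of all genes. The median log2 difference was 0.07 at 0.5 and 0.11 at 0.75 µg/ml. Of the 11 genes, 9 were higher and 2 lower at each dose than in the control. Of all genes past the filter, 52.9% were higher at 0.5 and 50.2% at 0.75 µg/ml. Among the 9, Gpt2, Bckdha and Bckdhb were under background on every array. Past the positive-control SD lay 18.2% of the 11 at 0.5 and 27.3% at 0.75 µg/ml, near the 13.2% and 25.3% of all genes. The spermidine synthase gene Srm was at 1663, 1663 and 2396, and Bcat1, which starts the breakdown of leucine, at 599, 735 and 792. Asl was lower at both doses, at 215, 191 and 152. Of 33 measured carriers of other families, 25 passed the filter and 1 was at least 2-fold lower at 0.75 µg/ml, beside 1.57% of all genes past the filter. It was the citrate carrier gene Slc25a1, at 614 against 1569 in the control. The thiamine carrier gene Slc19a2 was at 618, 533 and 812.

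Among 14 candidate regulators of carrier genes, 11 passed the filter. Myc, which drives many carrier genes in activated T cells, was at 5925, 5703 and 5306. Hif1a, the hypoxia factor gene, was at 2512, 2607 and 1704.5, and Txnip, which restrains glucose uptake, at 1871, 1697 and 1188. Epas1, a relative of Hif1a, was the 1 gene at least 2-fold higher at 0.75 µg/ml, beside 0.356% of all genes, at 63.3 against 23.1 in the control, under background on both arrays. The carrier chaperone gene Bsg was at 4729.7, 4766 and 4019.8. Of the other carrier partner genes above background, Emb was also lower at 0.75 µg/ml, at 1230, 1168 and 1003. Nptn was higher at 0.75 µg/ml, at 1040, 1029 and 1269.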

How the data were processed

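Total RNA of 3 mouse CD8 T cell samples was extracted with Trizol and biotin-labelled by a whole-transcript sense protocol, per the labels. The deposited table holds 1 linear intensity per probe set and array. How the authors corrected background and normalized, and with which software, is not given in the sources used here. Of 28846 probe sets, 19572 had a gene symbol in the platform annotation; all 78 carrier symbols matched RefSeq. The brightest probe set per gene was used. Values were put on the log2 scale with a floor of 1, which no value fell under, and were not normalized again. Genes were kept if their mean log2 intensity reached the median over all probe sets, 5.02, which 19.8% of 5222 negative controls also did. Comparisons are differences of log2 values between 2 arrays with a threshold of 2-fold and no test.

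Named were all carriers above background on at least 1 array. Values on every array were set by rule for those differing 1.5-fold and a fixed set, and the remaining carriers' values were added later. Genes of the other lists were named if above background on at least 1 array and 1.5-fold different, and others were added for their mean difference or role. The likeness search took the carrier with the largest difference among those above background on every array. The members and lists were chosen with earlier results of these data known. The counting was tested on simulated data for 0.75 against 0.5 µg/ml over 10940 genes. It recovered 200 of 200 genes changed 4-fold with 0 of 10740 false counts. Recovery of genes changed less than 4-fold, which covers all carrier genes here, was not tested. On the measured arrays 44 of the 10940 genes were at least 2-fold higher and 130 lower in that comparison. How many of these would recur on replicate arrays was not tested. Alternatives were raised dim values, other level filters, quantile normalization, median centring and the mean over probe sets. Calculations used Python 3.11.15, numpy 2.4.6 and pandas 2.3.3, and plots matplotlib 3.10.9.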

Additional observations from a re-analysis of the deposited data

How the results depend on the processing

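The counts of carrier genes at least 2-fold different were 0 in each of the 3 comparisons and both directions. They stayed 0 under quantile normalization and median centring. They were also 0 with dim values raised to the background level, with no level filter and with the mean over probe sets. The same held with only genes above background on at least 1 array or, chosen after seeing the data, on all 3 arrays. Apart from quantile normalization and median centring, these settings could only return 0. Each carrier gene had 1 probe set, raised dim values only narrow differences, and the widest span of any carrier gene was 1.85-fold. With a threshold of 1.5-fold the counts became 1 lower at 0.5 µg/ml against the control, 1 higher and 1 lower at 0.75 µg/ml against the control, and 1 lower at 0.75 against 0.5 µg/ml. The median differences moved by less than 0.1 on the log2 scale under each alternative. Above the 99th percentile of the negative controls, which was far higher at 527 to 670.1, 7 carrier genes lay, in place of 24. With each array set against its own 95th percentile the number was 25, with Slc38a7 added. Of 216 recomputed differences of the 24 carrier genes above background on at least 1 array, 214 moved by less than the positive-control SD. The other 2 were Slc6a19 at 0.75 µg/ml, which with dim values raised was -0.18 against the control and 0.00 against 0.5 µg/ml. No paired analysis was possible because each group has 1 array. With 1 array per group, differences of the sizes given here have no replicate error to be set against.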

Other observations

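Some carrier genes had exactly the same deposited intensity on 2 arrays. The control and 0.5 µg/ml values were identical for 10 of the 78 carrier genes (12.8%), beside 3.33% of all genes. They included Slc7a1, Slc7a6 and Slc2a13, which were above background. The other 7 were under background, among them Slc1a1, Slc1a2 and Slc3a1. Identical values on the control and 0.75 µg/ml arrays occurred for 1 carrier gene, beside 3.13% of all genes, and on the 0.75 and 0.5 µg/ml arrays for 4, beside 3.84%. The processing step that gives identical values is not stated in the sources used here.

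On the reference assembly, 8 pairs of carrier genes are direct neighbours among protein-coding genes. In 2 of these pairs both genes were above background on every array. Slc38a1 and Slc38a2 on chromosome 15 had log2 differences at 0.75 µg/ml against the control of 0.28 and -0.06. Slc7a6 and Slc7a6os on chromosome 8 had 0.05 and 0.30.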
